A study of Mus musculus with 12 samples.

Results

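CC chemokines are small secreted proteins, named for a pair of adjacent cysteines near their amino end, that draw white blood cells into tissue through G protein-coupled receptors. The genes Ccl2, Ccl5, Ccl6, Ccl7, Ccl8, Ccl9, Ccl11 and Ccl24 were followed across control, diabetic and angiotensin IV-treated diabetic mouse hearts. They are 8 of the 19505 genes that the arrays name, taken by gene symbol, and each was read from a single probe set. They were chosen by gene family with earlier log2 signals of these arrays in view, above all the difference between diabetic and control hearts, so that difference is described below and not tested gene by gene. All 8 were among the 13653 genes tested. Ccl8 was kept by the filter on dim genes through the diabetic arrays, since its control mean of 3.37 lay under the filter's 3.40.

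Gene expression was measured on 12 single-colour Affymetrix arrays of mouse myocardium, 4 from each of 3 groups. NC mice were negative controls that received vehicle by intraperitoneal injection for 5 days. DM mice received streptozotocin, a toxin to the insulin-producing cells of the pancreas, over the same 5 days, and entered the study 2 weeks later if their fasting glucose was at least 16.7 mM. AngIV mice were diabetic in the same way and were also infused with angiotensin IV, a short fragment of angiotensin II, with a dose of 2.88 mg/kg per day that began at the end of week 8 and stopped at week 24. The source names give 6 months for the tissue of all groups without saying whether this is an age or a time since injection, and no strain or sex is named in the labels. A disease state tag contradicts the titles, source names and design by calling NC diabetic and AngIV a negative control, and it was set aside. Streptozotocin models diabetes through loss of insulin, and no group of non-diabetic mice with angiotensin IV was part of the design.

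All values are log2 signals made with RMA (robust multi-array average), on which a difference of 1 is a doubling. They rank arrays for a gene, not genes against each other. The 95th percentile of 5222 negative control probe sets, which lay between 5.39 and 5.60 over the arrays, is used as the level of background. Myh6, Tnnt2 and the 5 other heart muscle markers listed lay above it, with a mean of 11.3 to 11.5 on every array. Atrial markers were uneven. Their mean ranged from 5.11 to 8.58 in NC and from 4.55 to 8.11 in DM, but only from 4.96 to 5.36 in AngIV. Tissue holds many cell types, so fewer cells of a type and less RNA per cell cannot be told apart in any value below.

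Ccl2, Ccl7 and Ccl8 belong to the monocyte chemoattractant proteins, of which Ccl2 and Ccl7 act mainly through CCR2. Ccl11 and Ccl24 are eotaxins, ligands of CCR3 on eosinophils. Ccl6 and Ccl9 are a closely related pair of rodent chemokines that act through CCR1, and Ccl5 (RANTES) serves T cells and monocytes. In the heart, this system is best known for bringing CCR2-bearing monocytes to injured muscle. In the RefSeq gene table of GRCm38, Ccl2, Ccl7, Ccl11, Ccl12 and Ccl8 follow each other on chromosome 11 with 0 other coding genes between them. Ccl5, Ccl9 and Ccl6 stand in a second run on the same chromosome, and Ccl24 is on chromosome 5.

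Ccl8 had the widest range of signals over the arrays. On NC replicates 1 to 4 it read 3.44, 3.14, 2.93 and 3.98, all under background. DM replicates 1 to 4 read 7.60, 6.12, 6.41 and 3.14. AngIV replicates 1 to 4 read 5.81, 7.06, 6.94 and 4.62. The first 3 DM arrays thus stood well above all controls while the last sat among them, and every AngIV array lay above every NC array. Controls averaged 3.37 ± 0.46, untreated diabetic hearts 5.82 ± 1.90 and treated ones 6.11 ± 1.14 (SD, n = 4). Because Ccl8 was under background on all NC arrays, its fold over NC cannot be measured. With each control array raised to its background level, the excess was at least 1.27-fold in DM and at least 1.55-fold in AngIV. DM replicate 4 and AngIV replicate 4, also under background, entered at their own values. The DM value rested on DM replicate 1, since without it the DM mean lay under that background level.

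**Figure D1:**
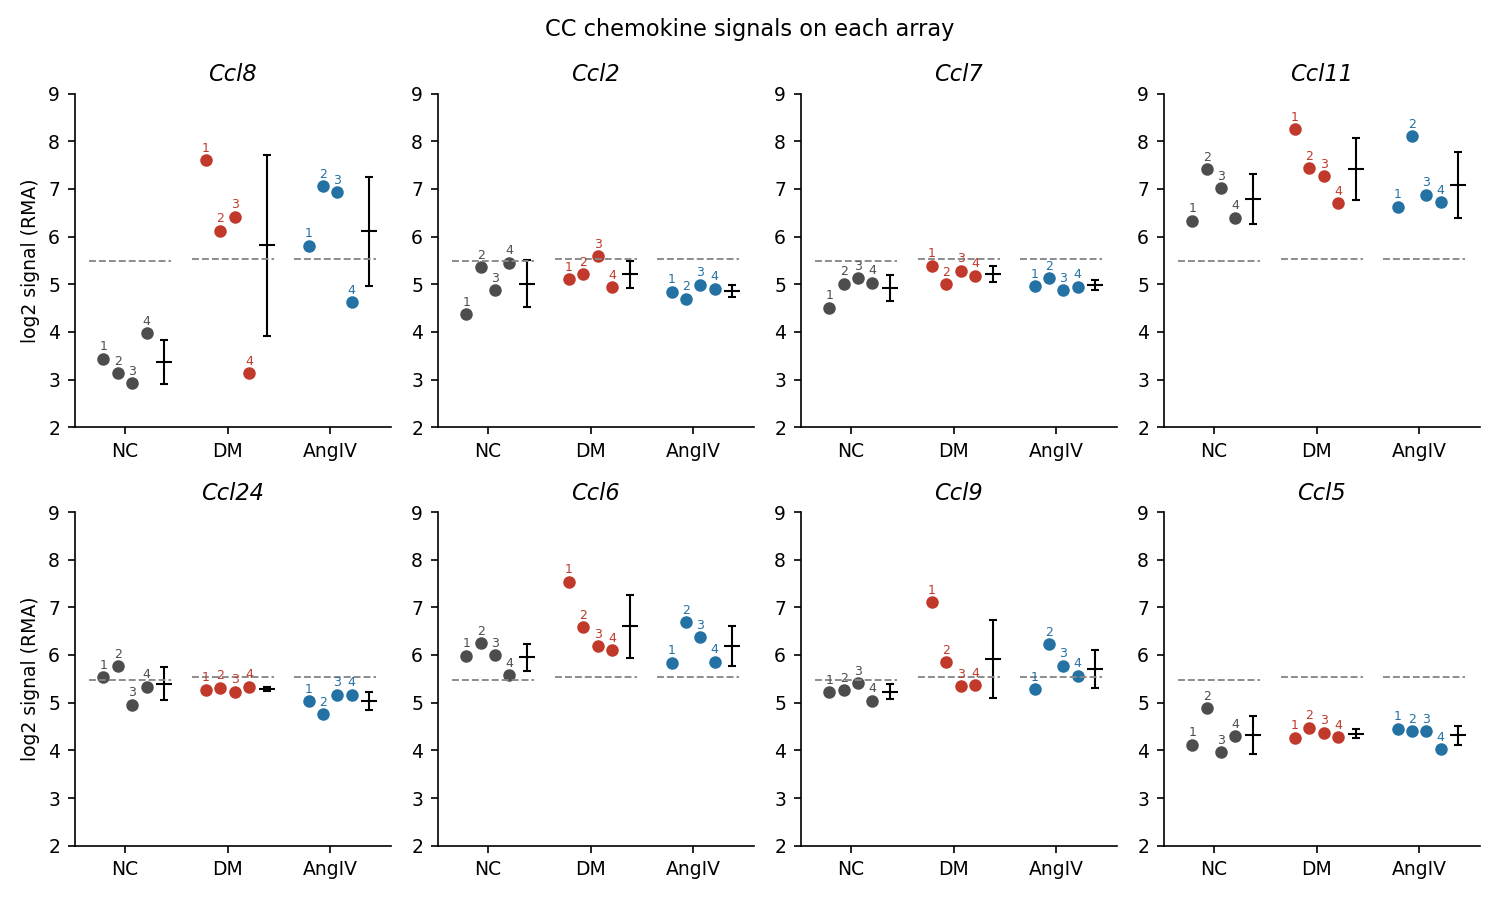
Log2 signal (vertical axis) of each gene on the 4 arrays of NC, DM and AngIV; points are arrays labelled by replicate number, black bars are mean ± SD (n = 4) and dashed lines the group's mean 95th percentile of negative control probe sets. Ccl8 is under the dashed line on all 4 NC arrays and above it on 3 of 4 DM and 3 of 4 AngIV arrays, and DM replicate 1 is the highest array for Ccl6, Ccl7, Ccl8, Ccl9 and Ccl11.

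Ccl11 and Ccl6 were above background on all 12 arrays. Ccl11 read 6.33, 7.41, 7.01 and 6.40 on NC replicates 1 to 4, and 8.25, 7.44, 7.27 and 6.70 on DM replicates 1 to 4. On the AngIV arrays it read 6.63, 8.11, 6.88 and 6.73. DM replicate 1 and AngIV replicate 2 were the highest arrays, and all 3 groups overlapped.

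Ccl6 read 5.98, 6.25, 5.99 and 5.57 in NC, and 7.54, 6.58, 6.19 and 6.10 in DM. In AngIV it read 5.84, 6.69, 6.37 and 5.86. The same DM and AngIV arrays were again highest, and DM replicates 3 and 4 fell within the NC range.

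Ccl9 read 5.22, 5.26, 5.42 and 5.04 in NC, close to background. It read 7.10, 5.85, 5.35 and 5.37 in DM and 5.28, 6.23, 5.78 and 5.57 in AngIV. Here too the high arrays were DM replicate 1 and AngIV replicate 2, while DM replicates 3 and 4 could not be told from NC.

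The other 4 genes stayed near or under background, so no fold is given for them. Ccl2 ranged from 4.37 to 5.45 in NC, 4.94 to 5.59 in DM and 4.70 to 4.99 in AngIV, rising over background on 1 NC and 1 DM array. Ccl7 ranged from 4.51 to 5.13, 4.99 to 5.39 and 4.87 to 5.13 in the same order, and Ccl5 from 3.96 to 4.88, 4.27 to 4.47 and 4.02 to 4.46. Ccl24 was the exception in direction: it was highest in NC, at 4.96 to 5.76, with 5.23 to 5.33 in DM and 4.76 to 5.17 in AngIV, so that its DM and AngIV arrays did not overlap. By group mean the order was DM, AngIV, NC for Ccl5, Ccl6, Ccl7, Ccl9 and Ccl11. It was AngIV, DM, NC for Ccl8, DM, NC, AngIV for Ccl2 and NC, DM, AngIV for Ccl24. Neighbouring groups in these orders overlapped on the arrays in every case but that of DM and AngIV for Ccl24.

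The genes differed in how variable they were over the 12 arrays. Ccl8 had an SD of 1.74, larger than that of 99.9% of the genes tested, and Ccl11, Ccl9 and Ccl6 had SDs of 0.62, 0.57 and 0.51, larger than those of 98.3% or more. The median gene had 0.19. Between-group differences made up 54.1% of the variance of Ccl8, 29.8% of that of Ccl6, 27.7% for Ccl9 and 18.6% for Ccl11, against 22.0% for the median gene tested. Most of the variation of Ccl6, Ccl9 and Ccl11 therefore lay between mice of the same group.

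Promoter sequences from RefSeq were at hand for 3 of the 8 genes, Ccl8, Ccl6 and Ccl9. They are shown because Ccl8 was above background on most diabetic arrays and on no control array. Ccl6 and Ccl9 had the highest Pearson r of the pairs among the 8 genes, though not the highest rank correlation. Each line gives the 250 bases before the annotated start, 5′ to 3′ on the gene's strand (GRCm38.p6; Ccl8 chr11:82114935-82115184, plus strand; Ccl6 chr11:83593088-83593337, minus strand; Ccl9 chr11:83578637-83578886, minus strand). Capitals mark, on either strand, the TATA box letters TATAAA, the ETS core with the letters GGAAGT, the AP-1 pattern TGANTCA and the STAT pattern TTCNNNGAA.
Ccl8: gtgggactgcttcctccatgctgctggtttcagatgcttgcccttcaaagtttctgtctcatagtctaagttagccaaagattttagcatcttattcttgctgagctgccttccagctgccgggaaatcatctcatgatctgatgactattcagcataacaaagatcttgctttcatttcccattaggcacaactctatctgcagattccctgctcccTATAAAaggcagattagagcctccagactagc
Ccl6: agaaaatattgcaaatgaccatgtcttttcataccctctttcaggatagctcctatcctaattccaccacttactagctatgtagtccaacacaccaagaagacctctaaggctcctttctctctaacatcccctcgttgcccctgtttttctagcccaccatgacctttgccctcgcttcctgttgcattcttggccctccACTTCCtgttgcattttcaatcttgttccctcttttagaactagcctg
Ccl9: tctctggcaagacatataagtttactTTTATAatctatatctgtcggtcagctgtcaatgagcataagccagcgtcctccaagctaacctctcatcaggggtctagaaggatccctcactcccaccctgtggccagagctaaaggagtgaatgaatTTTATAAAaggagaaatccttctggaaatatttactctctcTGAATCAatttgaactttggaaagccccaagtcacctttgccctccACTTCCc

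Ccl8 held a TATAAA at bases -32 to -27 from its start. Ccl9 held TATAAA on its own strand at -92 to -87, overlapping a match on the opposite strand, and another opposite-strand match at -224 to -219. It also held TGAATCA, an AP-1 match, at -53 to -47. Ccl6 and Ccl9 each held GGAAGT on the opposite strand, at -48 to -43 and -7 to -2, inside their longest shared run, the 13 bases gccctccacttcc. The STAT pattern and the C/EBP pattern TTGCNNCAA were not in these windows, and a loose NF-kB pattern (GGG and CC with any 5 bases between) matched only in Ccl9, on the opposite strand, at -35 to -26. Of 32851 promoter windows of 250 bases, 12.4% held the TATA box letters, 19.7% the ETS core, 6.75% the AP-1 pattern, 7.02% the STAT pattern, 1.74% the C/EBP pattern and 45.8% the loose NF-kB pattern.

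The first comparison, DM against NC, asks what streptozotocin diabetes changed. The mean was higher in DM for 7 of the 8 chemokines, as it was for 49.6% of all genes tested, with a median difference of 0.46 against 0.00 for all genes. Ccl9 had a log2 difference of 0.69 ± 0.31 (SE), Ccl6 of 0.65 ± 0.27 and Ccl11 of 0.63 ± 0.35. The fitted log2 difference of Ccl8 was 2.45 ± 0.73. With all NC arrays under background, only at least 1.27-fold can be stated, a value that rested on DM replicate 1. Ccl6 and Ccl11, which were above background in both groups, were thus 1.57 and 1.54 times as high in DM. Ccl7, Ccl2 and Ccl5 differed by 0.29 ± 0.13, 0.19 ± 0.20 and 0.03 ± 0.17, and Ccl24 by -0.11 ± 0.15.

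Limma called 0 of the 8 at an adjusted p under 0.05, where 0.0220% of all genes were called. At an unadjusted p under 0.05, 4 of the 8 were higher, where 5.62% of all genes were. None of the 8 was higher in DM without overlap of the arrays, where 2.84% of all genes were. Since this contrast guided the choice of genes, nothing is read from these counts. Single mice weighed heavily. Without DM replicate 1 the differences of Ccl6, Ccl9 and Ccl11 were 0.34, 0.29 and 0.35, and that of Ccl8 was 1.85. Without DM replicate 4 that of Ccl8 was 3.34, and 1 of the 8 was then called, from which again nothing is read.

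The second comparison, AngIV against DM, asks what angiotensin IV changed in diabetic hearts. It shares the DM arrays with the contrast that guided the choice of genes, in which high DM arrays bore on that choice, so no direction is read from the counts. Limma called 0 of the 8 genes and 0.00% of all genes, and 0 of the 8 had an unadjusted p under 0.05, where 8.78% of all genes had. The mean was lower in AngIV for 7 of the 8, as for 47.1% of all genes, with a median difference of -0.24 against 0.01 for all genes. Ccl6 was 0.753 times as high in AngIV, with 95% bounds of 0.501 and 1.13 (limma adjusted p = 0.682). Ccl11 was 0.795 times as high, with bounds of 0.473 and 1.34 (limma adjusted p = 0.795), and Ccl9 0.867 times, with bounds of 0.551 and 1.36 (limma adjusted p = 0.866). These bounds hold a fall, no change and a rise. Ccl9 was above background on only 2 of 4 DM and 3 of 4 AngIV arrays, so its value is a fitted difference and not a measured fold.

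Ccl8 ran the other way, by a log2 difference of 0.29 whose 95% bounds were -1.26 and 1.84 (limma adjusted p = 0.935), and its sign turned without DM replicate 4, at -0.61, or without AngIV replicate 2, at -0.03. Ccl2 had a difference of -0.35 ± 0.20 (SE), Ccl24 of -0.25 ± 0.15 and Ccl7 of -0.24 ± 0.13, with limma adjusted p-values from 0.623 to 0.630. Ccl24 was lower on each AngIV array than on each DM array, the only one of the 8 without overlap, where 2.19% of all genes were. Without DM replicate 1 the differences of Ccl6 and Ccl11 shrank to -0.10 and -0.05, and that of Ccl9 turned to 0.19.

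The third comparison, AngIV against NC, sets treated diabetic hearts against controls. It shares its arrays with the other 2, the NC arrays among them with the contrast that guided the choice, so its values are not a further replicate of them. Limma called 0 of the 8 genes, where 2.15% of all genes were called, and 2 of the 8 had an unadjusted p under 0.05, where 18.6% of all genes had: Ccl8, higher, and Ccl24, lower. The mean was higher in AngIV for 6 of the 8, as for 50.6% of all genes. Ccl8 was at least 1.55-fold higher, with means of 6.11 in AngIV and 3.37 in NC, where it was under background, and missed the threshold (limma adjusted p = 0.0604). It was higher on 4 of 4 AngIV arrays than on any NC array, where 7.59% of all genes were.

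Whether Ccl8 was called depended on the fit, and since it passed the filter through the groups where it is high, a call is no support for a difference. It passed with only the NC and AngIV arrays in the fit (limma adjusted p = 0.0110) and without DM replicate 4 (limma adjusted p = 0.00929). Over all 20 alternatives its limma adjusted p ran from 0.00929 to 0.153, under 0.05 in 6. Ccl24 had a difference of -0.36 ± 0.15 (SE; limma adjusted p = 0.203), Ccl9 of 0.48 ± 0.31, Ccl11 of 0.30 ± 0.35 and Ccl6 of 0.24 ± 0.27, with limma adjusted p-values from 0.426 to 0.709 for the last 3. Without AngIV replicate 2 the difference of Ccl11 was -0.044. Ccl7, Ccl5 and Ccl2 differed by 0.06, 0.01 and -0.15. With the mean of the atrial markers as a covariate, the fitted log2 difference of Ccl8 from NC was 2.46 ± 0.75 in DM and 2.66 ± 0.84 in AngIV. That of Ccl2 moved from -0.35 to -0.72 in AngIV against DM and from -0.15 to -0.47 in AngIV against NC (limma adjusted p = 0.0982), and that of Ccl6 from -0.41 to -0.21 in AngIV against DM. Ccl2 had an r of -0.424 with the atrial mean over 12 arrays (rho -0.175) and of -0.852 in deviations from the group means. Without NC replicate 1 and DM replicate 2 its r over the arrays was -0.271. Ccl2 was over background on only 1 NC and 1 DM array, and the part of atrial tissue in its values was not tested.

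**Figure D2:**
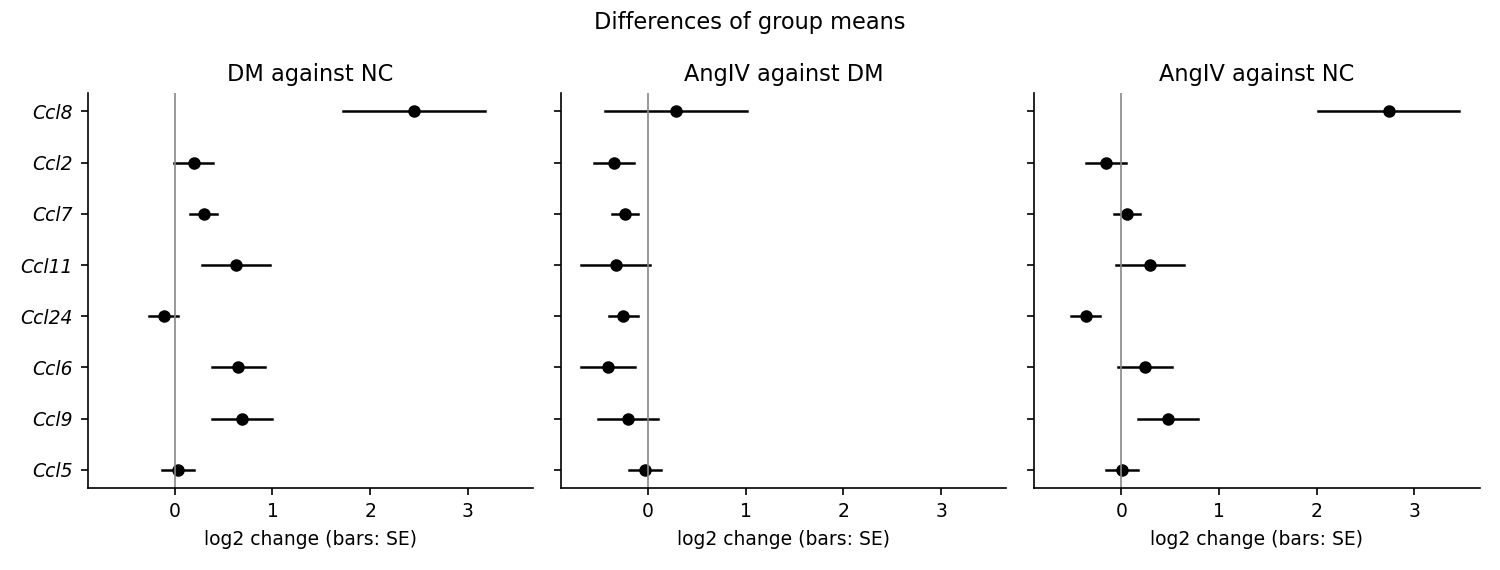
Log2 difference of group means (horizontal axis) for each gene in the 3 comparisons; points are differences and bars ± 1 SE of the limma fit over 12 arrays. The points of Ccl8 against NC, at 2.45 and 2.74, are fitted from NC arrays under background, so they are not measured folds. Raising those arrays to background leaves at least 1.27-fold in DM and at least 1.55-fold in AngIV. In AngIV against DM, which shares the DM arrays that guided the choice of genes, 7 of the 8 points lie left of 0.

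The genes did not vary as 1 block. Over the 12 arrays Ccl6 and Ccl9 had the highest Pearson r, 0.942, with a Spearman rho of 0.769. By rho, Ccl6 and Ccl11 were the closest pair. Ccl6 and Ccl11 had an r of 0.882 (rho 0.881) and Ccl9 and Ccl11 an r of 0.83 (rho 0.755). Ccl8 followed these 3 less closely, with an r of 0.661 to Ccl6, 0.716 to Ccl9 and 0.612 to Ccl11. Taken as deviations from the group means, the r of Ccl6 with Ccl9 and Ccl11 was 0.947 and 0.858. Their likeness was therefore present between mice of 1 group. The 2 arrays farthest from the median of a pair's first gene were then left out. Without NC replicate 4 and DM replicate 1, the r of Ccl6 and Ccl9 was 0.799 and that of Ccl6 and Ccl11 was 0.823. Without DM replicate 1 and AngIV replicate 2, that of Ccl9 and Ccl11 was 0.494, so it rested in part on these 2 arrays. The arrays left out for Ccl9 and Ccl11 differ from those for the pairs with Ccl6, so its value cannot be compared with theirs. These correlations are descriptions over arrays that all genes share, and carry no test.

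Ccl2, Ccl5 and Ccl24 went their own ways. Ccl2 had an r of 0.017 with Ccl6 and -0.087 with Ccl9, although it lies in the same chromosomal run as Ccl11 and Ccl8, with which it had 0.176 and 0.121. Its largest r was 0.565, with its neighbour Ccl7, which fell to -0.068 without NC replicate 1 and DM replicate 3; without them its r with Ccl24 was 0.814 in place of 0.277. Ccl24 had a negative r with Ccl6, Ccl7, Ccl8, Ccl9 and Ccl11, from -0.450 to -0.087. Ccl2, Ccl5, Ccl7 and Ccl24 were near or under background on nearly all arrays.

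**Figure D3:**
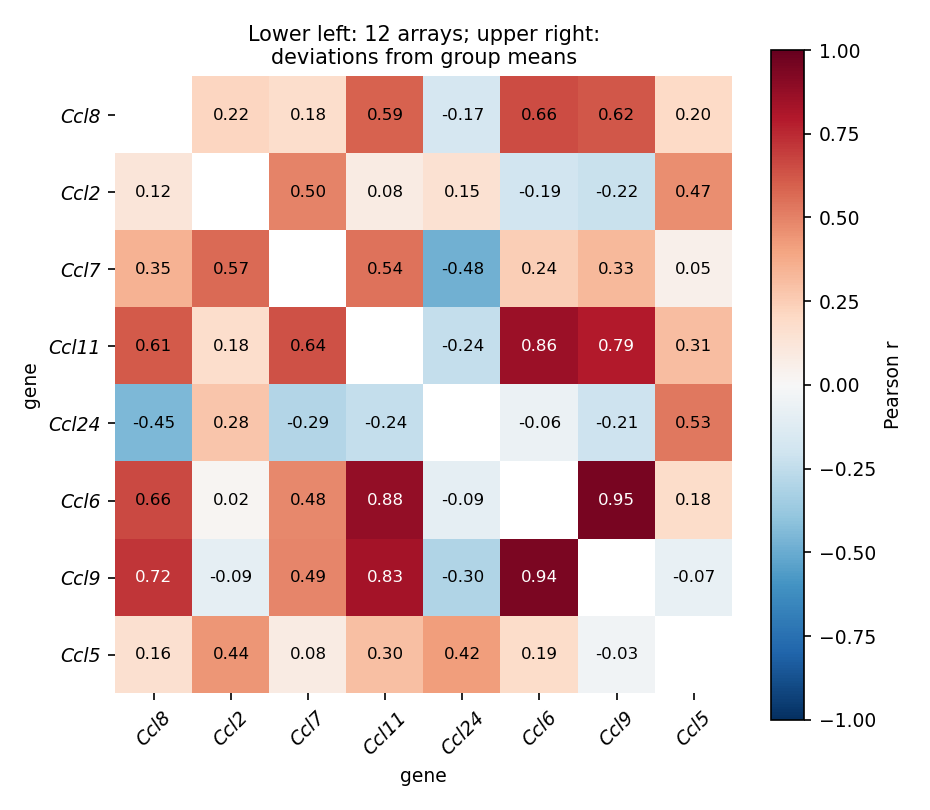
Pearson r between the 8 genes (both axes); the lower left holds r over 12 arrays and the upper right r of deviations from the group means, with colour from -1 (blue) to 1 (red). Ccl6, Ccl9 and Ccl11 form the reddest block on both sides of the diagonal, from 0.79 to 0.95, and Ccl2, Ccl5 and Ccl24 are pale against it.

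Other genes matched single chemokines as closely. The gene most like Ccl8 was Grn, which encodes progranulin, a lysosomal and secreted protein abundant in macrophages (r = 0.942, rho = 0.804; 0.875 for deviations from group means). Next came Arrdc1, an arrestin-domain gene (r = 0.930). Ccl6 and Ccl9 each had the other as closest gene, followed by Dysf, the membrane repair gene dysferlin, for Ccl6 (r = 0.924) and Map3k6 for Ccl9 (r = 0.921). Ccl11 was nearest to the calcium channel gene Cacna1h (r = 0.905) and the proprotein convertase gene Pcsk6 (r = 0.904). The nearest genes were Stx6 and Aldh3b1 for Ccl2, Mindy3 and Spata16 for Ccl5, and Kif3b and Ehhadh for Ccl7. For Ccl24 they were Rcc2 and Arhgef38. Over Ccl2, Ccl5, Ccl7 and Ccl24 these r ran from 0.850 to 0.919. Map3k6, Aldh3b1, Spata16, Kif3b, Ehhadh and Arhgef38 were under background by mean in every group, and Stx6 was in AngIV. Each nearest gene was picked for its large r out of all genes compared, on 12 arrays only. Whether such an r exceeds chance was not tested.

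The 10 genes most like the mean of all 8, each scaled to its own SD, were H1f10, Chrna2, Tbc1d14, Hsd17b7, Uhrf1bp1l, Stx12, Spr, Man1a, Srpx and Txnip, with r from 0.817 to 0.946. None of the 10 is a chemokine or a gene of the marker lists. H1f10, Chrna2, Tbc1d14 and Srpx were under background by mean in every group. The 10 were likewise picked for their large r, and whether it exceeds chance was not tested. Txnip encodes a glucose-induced inhibitor of thioredoxin.

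Macrophage markers moved with Ccl8. The list holds 18 genes, among them Csf1r, Cd163, C1qa and Lyz2. Of these 18, 17 had a probe set, 16 were tested and 10 lay above background by mean in at least 1 group. The mean over the 17 was 5.56, 5.39, 5.43 and 5.38 on NC replicates 1 to 4. It was 6.31, 5.76, 5.81 and 5.38 on DM replicates 1 to 4 and 5.87, 6.03, 5.93 and 5.45 on the AngIV arrays. DM replicate 4, the DM array with Ccl8 at the control level, had a macrophage mean as low as the controls, and DM replicate 1 and AngIV replicate 2 had the highest. Ccl8 had an r of 0.929 with this mean over 12 arrays (rho 0.867), 0.899 for deviations from the group means and 0.917 without DM replicate 1 and AngIV replicate 2.

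Ccl9, Ccl6 and Ccl11 had r of 0.820, 0.793 and 0.685 with the macrophage mean, which fell to 0.499, 0.452 and 0.210 without those 2 arrays. Ccl2 had -0.065 and Ccl24 -0.407. Whether the amount of macrophage RNA accounts for the level of these chemokines was not tested.

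**Figure D4:**
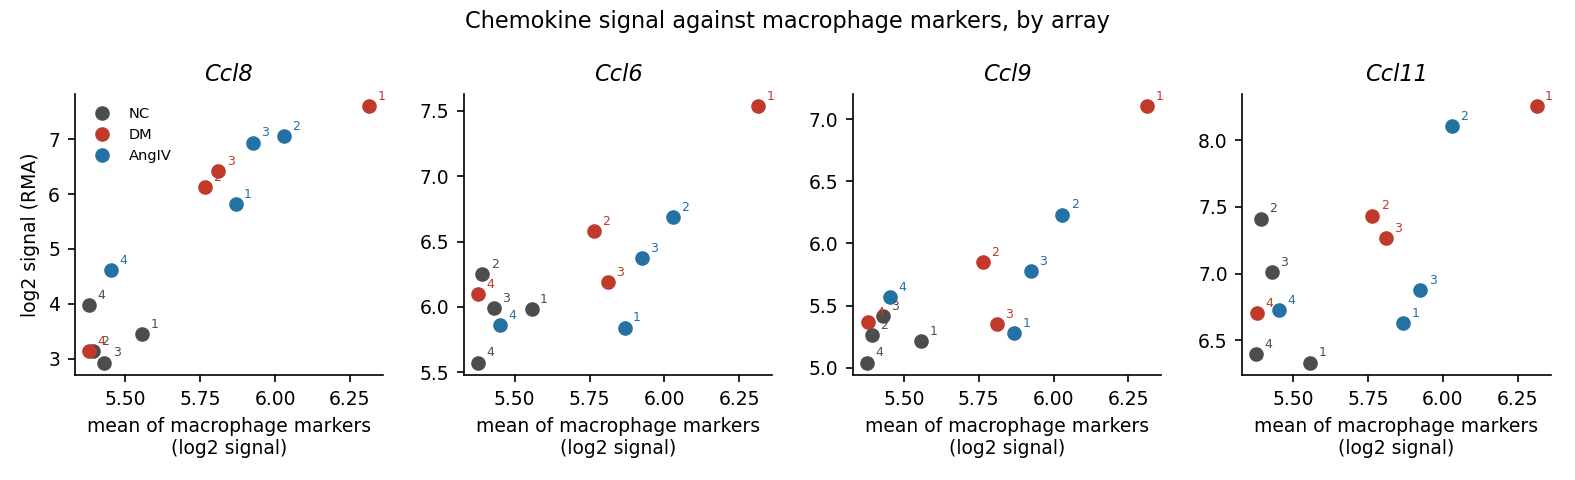
Log2 signal of Ccl8, Ccl6, Ccl9 and Ccl11 (vertical axes, each with its own range) against the mean log2 signal of 17 macrophage markers (horizontal axis); each point is 1 of 12 arrays, coloured by group and labelled by replicate number. Ccl8 follows the marker mean over all arrays (r = 0.929), with DM replicate 4 beside the NC arrays at the lower left.

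In DM against NC all 16 tested macrophage markers had a higher mean, in AngIV against DM 7 of 16 and in AngIV against NC 15 of 16. Of all genes tested, 49.6%, 52.9% and 50.6% had a higher mean in the same order. The list was chosen with earlier results of these data known, so no direction is read from these counts. The median differences of the markers were 0.33, -0.03 and 0.28, against 0.00, 0.01 and 0.00 for all genes tested. Limma called 0 of them in any comparison, and 6, 0 and 5 were higher at an unadjusted p under 0.05. Of all genes tested, 5.62%, 5.27% and 10.9% were higher and 5.08%, 3.51% and 7.74% lower at that p in the same order. The scavenger receptor gene Cd163 and the pore-forming Mpeg1 had differences of 1.18 ± 0.31 (SE) and 1.43 ± 0.39 in AngIV against NC, with limma adjusted p = 0.0595 and 0.0644, and Lyz2 of 0.71 ± 0.23. Mertk, a receptor for dying cells, had 0.62 ± 0.24. Mertk and Mpeg1 were under background by mean in every group and Cd163 in NC, so these are fitted differences and not measured folds.

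Of the 4 monocyte genes tested, Ly6c1 rose in AngIV against NC by 0.86 ± 0.19 (limma adjusted p = 0.0329), though endothelial cells express it too. Ly6c2, the monocyte-restricted copy, had 0.67 ± 0.17 (limma adjusted p = 0.0537), and since the 2 sequences are close, the split of signal between them is uncertain. Plac8 and Vcan had 0.00 ± 0.10 and -0.31 ± 0.14. The mean of the 5 monocyte genes with a probe set had an r of 0.858 with Ccl9 and 0.857 with Ccl8. For deviations from the group means these were 0.817 and 0.731, and without NC replicate 1 and DM replicate 1 they were 0.729 and 0.856. The monocyte mean ranged from 4.86 to 5.08 in NC, 5.02 to 5.55 in DM and 5.17 to 5.30 in AngIV.

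Markers of other white blood cells were at or under background. None of the 5 eosinophil genes with a probe set, the cells that eotaxins attract, reached it in any group. The same held for the 10 T and NK cell genes, 7 neutrophil genes, 3 B cell genes, 4 mast cell genes and 4 dendritic cell genes with a probe set. The mean of the eosinophil genes was 2.45 to 2.90 in NC, 2.60 to 2.83 in DM and 2.56 to 2.63 in AngIV, so the higher Ccl11 of DM replicate 1 and AngIV replicate 2 was not matched by eosinophil RNA that these arrays could detect. Fibroblast markers, 7 of which were measured, averaged 7.70 ± 0.19 in NC, 7.56 ± 0.16 in DM and 7.47 ± 0.17 in AngIV (SD, n = 4), and their mean had an r of -0.016 with Ccl11. Of these 7, the collagen gene Col3a1 fell in AngIV against NC, with a log2 difference of -1.17 (limma adjusted p = 0.00970).

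The receptors of these chemokines were mostly too dim to follow. Of 11 CC receptor genes with a probe set, 3 passed the filter and 1, Ccrl2, an atypical receptor that binds chemerin, lay above background, at 5.78 ± 0.28, 5.84 ± 0.08 and 5.94 ± 0.26 for NC, DM and AngIV (SD, n = 4). The median difference of the 3 tested, Ccr7, Ccr10 and Ccrl2, was -0.06 in DM against NC, and limma called 0 of them in any comparison, with 0 at an unadjusted p under 0.05.

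Ccr1 and Ccr2, picked out after their values were seen because Ccl6, Ccl9, Ccl2 and Ccl7 act on them, failed the filter. Ccr1 read 2.72, 2.62, 2.61 and 2.35 in NC, 3.75, 3.27, 2.93 and 2.47 in DM and 2.96, 3.65, 3.24 and 2.93 in AngIV. DM replicate 1 and AngIV replicate 2 were thus the highest arrays for Ccr1, as for Ccl6 and Ccl9, but at levels where the size of a difference is not a measured fold. Ccr2 averaged 2.36 ± 0.20 in NC, 2.99 ± 0.42 in DM and 2.64 ± 0.20 in AngIV (SD, n = 4), and Ccr3, the eotaxin receptor, stayed at 1.34 to 2.15 on all arrays.

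Atypical receptors bind chemokines without signalling through G proteins and lower their local amount. Ackr3, a scavenger of CXCL12, was above background, at 7.09 ± 0.23, 7.11 ± 0.24 and 7.05 ± 0.44 in NC, DM and AngIV. Ackr2, which scavenges inflammatory CC chemokines, was under it, with a difference of 0.52 ± 0.16 (SE; limma adjusted p = 0.248) in DM against NC and 0.39 ± 0.16 (limma adjusted p = 0.205) in AngIV against NC. Neither was called.

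The 13 other CC chemokines gave no call in any comparison. All had a probe set, 10 were tested, and their median differences were 0.03, -0.01 and -0.04 in the 3 comparisons, in the order above. The list had 6, 5 and 4 of 10 higher, near the shares of all genes. The lymphoid chemokine Ccl21a was the 1 gene of these above background, at 6.85 ± 0.14, 6.89 ± 0.26 and 6.80 ± 0.04, and its probe set may share signal with its near-identical copies. Ccl12, the gene between Ccl11 and Ccl8 and a further CCR2 ligand, was singled out after its values were seen. It read 4.15, 3.63, 3.09 and 3.96 in NC, 4.79, 5.04, 4.67 and 4.35 in DM and 3.95, 4.92, 4.84 and 4.07 in AngIV. Every DM array lay above every NC array, where 2.84% of all genes were higher without overlap. All these arrays were under background for Ccl12, and the difference was 1.01 ± 0.25 (limma adjusted p = 0.153). Since Ccl12 was picked with these values in view, nothing is read from them.

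CXC, CX3C and XC chemokines, which draw other cells, showed no common shift. Of 17 genes 12 were tested, with median differences of 0.01, -0.01 and 0.01 in the same order, and limma called 0. At an unadjusted p under 0.05, 1 of the 12 was lower in each comparison, where 5.08%, 3.51% and 7.74% of all genes were. Pf4, platelet factor 4, differed by -0.32 ± 0.11 (SE) in AngIV against DM and Xcl1 by -0.36 ± 0.12 in DM against NC and by -0.29 ± 0.12 in AngIV against NC. Xcl1 was under background on all arrays, so its values are fitted differences and not measured folds. Its DM mean of 3.33 lay under the filter's 3.40, so it was kept through its other arrays and its p is no support. The receptors of CXC, CX3C and XC chemokines, 8 genes of which 3 were tested, had 0 above background and 0 called. At an unadjusted p under 0.05, 1 of them, Cxcr4, was higher in AngIV against DM, where 5.27% of all genes were.

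Genes that induce or transmit chemokine induction, such as Tnf, Il1b, Nfkbia and Stat3, were counted as a list of 26, of which 24 had a probe set and 18 were tested. Their mean over the 24 had an r with Ccl8 of 0.812 over 12 arrays (rho 0.776). It was 0.632 for deviations from the group means and 0.722 without NC replicate 2 and DM replicate 1. For Ccl9, Ccl6, Ccl11, Ccl7, Ccl5, Ccl2 and Ccl24 the r was 0.758, 0.710, 0.495, 0.380, 0.068, -0.010 and -0.328. Without those 2 arrays it was 0.505, 0.568, 0.376, 0.110, 0.811, 0.095 and -0.227 in the same order. In DM against NC 15 of the 18 were higher (49.6% of all genes), with a median of 0.14. In AngIV against DM 7 were (52.9% of all genes), with -0.05, and in AngIV against NC 11 (50.6%), with 0.08. Limma called 0 in any comparison. At an unadjusted p under 0.05, 2 of the 18 were higher in DM against NC, where 5.62% of all genes were. In AngIV against DM 1 was lower, where 3.51% of all genes were. In AngIV against NC 2 were higher, where 10.9% of all genes were. Nfkbia, the NF-kB inhibitor and target, had 0.48 ± 0.18 in DM against NC and 0.59 ± 0.18 (limma adjusted p = 0.0929) in AngIV against NC. Stat3 had 0.39 ± 0.13 in DM against NC, Stat6 0.30 ± 0.13 in AngIV against NC, and Il13 -0.39 ± 0.14 in AngIV against DM. Il13 was under background on all arrays, so its value is a fitted difference and not a measured fold.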

How the data were processed

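Log2 signals, 1 per probe set and array, were deposited by the authors after RMA, per the submitters' processing notes. The RMA version and the build behind the probe sets are not given in the sources used here. RMA's quantile normalization hides changes in total mRNA, and differences near background are compressed on such arrays. Of 29129 probe sets, 6923 controls were left out. Of 22206 transcript probe sets, 19572 had 1 symbol in the platform annotation, 2634 none and 0 several; all 19572 matched a GRCm38 gene table by Entrez ID. Per gene the probe set of highest mean over 12 arrays was used, and the dimmest 30% of genes (mean under 3.40) were left out.

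Limma 3.58.1 in R 4.3.3 (lmFit, eBayes) estimated 1 mean for each group from the 12 arrays together, since the labels name no test. P-values were adjusted by Benjamini-Hochberg over 13653 genes, and calls were made under 0.05. Each array is treated as 1 mouse, 4 per group, and their number limits the precision. No file gives slides or scan dates, so batches were not examined.

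The 8 genes and all lists were chosen with earlier results of these data known. Named are the 8, the genes nearest to them by Pearson r, list genes called, receptors and other CC chemokines above background, and of other lists up to 4 genes of smallest p; exceptions are stated. Alternatives were other filters, fits, weights, a centring, an atrial covariate, a replicate block and each array left out.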

Additional observations from a re-analysis of the deposited data

Results flagged for a closer look

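Each gene's 4 arrays of a group were checked for 1 array far from the other 3, which made 24 sets, and 2 stood out; chance alone flags about 1 set in 20. Ccl11 on AngIV replicate 2 was the first, at a log2 signal of 8.11 where the nearest AngIV array had 6.88. The gap was 0.831 of the range and only just passed the critical value. Without this array the difference of Ccl11 in AngIV against NC was -0.04 in place of 0.30. Ccl5 on AngIV replicate 4 was the second, low at 4.02 where the next array had 4.40, a gap of 0.864 of the range and under background throughout. DM replicate 4, at 3.14 for Ccl8, and DM replicate 1, at 7.10 for Ccl9, did not pass this criterion.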

How the results depend on the processing

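In DM against NC and AngIV against DM, 0 of the 8 genes were called under each of the 8 alternatives other than leaving out an array. In AngIV against NC, 1 was called with the dimmest 50% of genes left out (7 of the 8 tested), 1 with only the 2 groups fitted, 1 with a trend in the prior and 1 with array weights, each time Ccl8, and 0 with no filter, centring, the atrial covariate or the replicate block. With each array left out in turn, 0 to 1 were called in DM against NC and in AngIV against NC, and 0 in AngIV against DM.

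Ccl8 kept its direction against NC in both comparisons under all 20 alternatives. Other signs turned, for differences that were not called. In DM against NC, Ccl2 kept its sign under 19 of 20 alternatives (-0.022 without NC replicate 1), Ccl24 under 19 of 20 (0.011 without NC replicate 2) and Ccl5 under 16 of 19. With the atrial covariate Ccl9 had 0.058 in AngIV against DM, and Ccl5 and Ccl7 had -0.11 and -0.062 in AngIV against NC; centred arrays gave Ccl5 -0.00452. Leaving out arrays gave ranges in AngIV against DM of -0.61 to 0.88 for Ccl8, -0.39 to 0.19 for Ccl9 and -0.072 to 0.071 for Ccl5. In AngIV against NC they were -0.11 to 0.19 for Ccl5, -0.078 to 0.13 for Ccl7 and -0.044 to 0.50 for Ccl11. The cause was not tested.

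Over all genes, calls in DM against NC were 3, with 20 on leaving out the dimmest 50%, 5 with only the 2 groups or the atrial covariate, 29 with a trend and 3 to 30 with an array left out. In AngIV against NC they were 293, with 492, 466, 381 and 576 under those fits and 104 to 469 with an array left out. In AngIV against DM they were 0, and 0 to 5 with an array left out.

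With the replicate block the counts were 3, 0 and 218 genes and 0 of the 8, and Ccl8 in AngIV against NC had 2.74 ± 0.64 (limma adjusted p = 0.0585). No pairing of the mice by number was seen: 2 of 12 same-numbered pairs deviated together with a correlation over 0.1. This does not show that there was none. Set against each other group, an array matched its own number best in 6 of 24 cases, each with 4 arrays to choose from. The mean over several probe sets could not be tried, since each of the 8 genes has 1. Signals near background limit Ccl2, Ccl5, Ccl7 and Ccl24 on nearly all arrays.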

Other observations

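Cxcl13, the chemokine that draws B cells and is outside the CC family, ranged from 2.71 to 6.96 over the arrays. It read 3.61, 3.21, 3.49 and 3.61 on NC replicates 1 to 4 and between 2.71 and 3.86 on DM replicates 2 to 4, against 6.96 on DM replicate 1. On AngIV replicates 1 to 4 it read 3.63, 4.99, 4.93 and 5.57. It was above background on 1 DM and 1 AngIV array and on no NC array, and the difference of AngIV from NC was not called (limma adjusted p = 0.325). DM replicate 1 was again the highest array. The B cell genes Cd79a, Cd79b and Ms4a1 had a mean of 2.62 to 3.25 on the 12 arrays, under background.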
